A study of Homo sapiens with 6 samples.

Results

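The HLA class I antigen presentation genes HLA-B, HLA-C, HLA-E, HLA-F, HLA-G, B2M, TAP1, TAP2 and TAPBP were followed in cells of the established ovarian cancer line OVCAR5, which the labels call epithelial. These 9 genes were picked by name, through their gene identifiers, from the 60649 gene rows of the count table. No cutoff on a measured value was used, but earlier results of these data were known when they were chosen. All 9 passed the filter on low counts, which left 22038 genes for testing. They comprise 5 heavy chains, the light chain that these share, and the peptide loading machinery.

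The libraries came from OVCAR5 cells that had been transduced with lentivirus and selected with puromycin, so both groups carry a lentiviral vector. The METTL3-overexpressing group (3 libraries) received a METTL3 construct and the vector control group (3 libraries) received the empty vector, although another part of the labels calls the controls parental. No cisplatin treatment is named for any of them, and the promoter driving METTL3, the number of clones and whether the replicates were separate cultures are not given in the sources used here. METTL3 is the catalytic subunit of the complex that writes m6A, a methyl mark on adenosines in mRNA, and the comparison asks which mRNA levels differ when it is overexpressed. P-values below therefore measure the spread between these libraries, which may be technical, and in bulk RNA a change in the share of cells that express a gene and a change in RNA per cell cannot be told apart.

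An HLA class I molecule is a heavy chain paired with beta-2-microglobulin, the product of B2M, and it shows peptides from inside the cell to CD8+ T cells. The peptides are pumped into the endoplasmic reticulum by the transporter made of TAP1 and TAP2, and tapasin, the product of TAPBP, holds empty heavy chains at that transporter until a fitting peptide binds. HLA-B and HLA-C are classical and highly polymorphic. HLA-E, HLA-F and HLA-G are non-classical: HLA-E presents leader peptides to the NKG2A receptor of natural killer cells, and HLA-G, best known from the trophoblast of the placenta, engages inhibitory receptors on leukocytes.

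Total counts lay between 101214854 and 125463386 in the METTL3-overexpressing libraries and between 96633925 and 113343102 in the vector control libraries. Levels are given as CPM, counts relative to the library total scaled by TMM factors, or per kilobase of annotated exon (RPKM) where genes are compared with each other. METTL3 itself, in the order of replicates 1, 2 and 3 used throughout, was measured at 152, 165 and 175 CPM with METTL3 overexpression against 80.6, 68.6 and 71.6 CPM with the vector, so the groups were separate and matched their labels. Its log2 fold change was 1.16 ± 0.117 (SE), with an adjusted p of 0.072 by edgeR and 1.36e-14 by DESeq2. The summed level of 5 epithelial markers (EPCAM, KRT8, KRT18, KRT19 and CDH1) was 6910 to 7902 CPM with METTL3 and 5591 to 8830 CPM with the vector. Of the leukocyte markers, PTPRC and CD3E were at or near 0, ITGAM was at 0.733 to 1.48 CPM and CD14 at 7.01 to 11.4 CPM. Replicate 1 was the highest library of its group, in both groups, for 6 of the 9 genes. The comparison is also given for replicates 2 and 3 alone. That setting leaves out libraries in which these same genes stood apart, so it is no independent test of them.

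HLA-G was compared in sequence with the abundant heavy chain genes that resemble it. Its reference transcript (ENST00000360323.11, coding length 1014 bases) was identical to HLA-C at 88.9% of aligned coding bases, to HLA-B at 88.3%, to HLA-E at 87.2% and to HLA-F at 86.8%. The longest stretches that HLA-G shares letter for letter with each are shown because a short read that falls inside one could not be assigned by sequence. All lie in exon 4 of HLA-G on the plus strand of GRCh38, the exon that encodes the membrane-proximal domain, and the HLA-C and HLA-F stretches are the same 51 bases at chr6:29829460-29829510. The HLA-B stretch of 43 bases (chr6:29829586-29829628) lies inside the HLA-E stretch of 114 bases (chr6:29829554-29829667).
HLA-G shared with HLA-C and HLA-F: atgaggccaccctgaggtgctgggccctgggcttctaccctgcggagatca
HLA-G shared with HLA-B: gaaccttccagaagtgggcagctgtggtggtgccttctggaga
HLA-G shared with HLA-E: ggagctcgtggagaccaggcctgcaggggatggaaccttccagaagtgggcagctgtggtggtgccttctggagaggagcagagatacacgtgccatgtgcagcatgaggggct

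Read length decides how much of HLA-G is unique, and the sources differ on it, with single-end reads of 50 bases in the study's methods and paired reads of 150 bases in the labels. Of the 1270 possible 50-base reads of the HLA-G transcript, 67 (5.28%) also occurred in another transcript of the MHC region, once genes overlapping HLA-G were set aside. HLA-E held all 67 of them, HLA-C and HLA-F each held 2, and HLA-B held 0. Among the pseudogenes described below, HLA-K held 19 and HLA-H held 4, while HLA-J, HLA-L and HLA-V held 0. At 150 bases, 0 of 1170 positions were shared. These counts are for exact matches to the reference, whereas the alleles of OVCAR5 were not analysed here and aligners allow mismatches.

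The RT-qPCR primers that the study designed for HLA-G fall in exon 3, at chr6:29828621-29828640 and chr6:29828729-29828748 (GRCh38, plus strand), and their sites are shown because they place conserved and divergent bases side by side. Capitals mark bases that differ from HLA-G, positions are counted from 1 at the 5′ end of each 20-base site on the transcript strand, and the second site is the reverse complement of the primer.
HLA-G forward site: cctacgatggcaaggattac
HLA-B forward site: cctacgaCggcaaggattac
HLA-C forward site: cctacgaCggcaaggattac
HLA-G reverse site: ctgaacaaaggagagcctac
HLA-B reverse site: cGgaGcaGCggagagcctac
HLA-C reverse site: cGgaGcaGCTgagagcctac
HLA-J reverse site: ctgaGcaaaggagagcctac

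The forward site differed from HLA-B and from HLA-C by 1 base, T8C. The reverse site differed from HLA-B by 4 bases (T2G, A5G, A8G and A9C) and from HLA-C by 5, but from the transcribed pseudogene HLA-J by a single base, A5G. Both the forward and the reverse site of HLA-J thus lay within 1 base of HLA-G.

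Per kilobase of exon, the 9 genes spanned a wide range, in an order that held in each of the 6 libraries. B2M was highest, with a mean of 399 RPKM (range 336 to 558), followed by HLA-C at 208 (188 to 254), HLA-E at 83.1 (76.1 to 95.7) and HLA-B at 52.2 (43.7 to 62.6). The loading genes came next, with TAPBP at 33.2 RPKM (19.1 to 37.9), TAP1 at 12.6 (10.8 to 15.4) and TAP2 at 6.9 (6.36 to 7.18). HLA-F at 2.59 RPKM (2.1 to 2.94) and HLA-G at 0.57 (0.191 to 0.804) were lowest. The ranges of neighbours in this order did not overlap, and the highest library exceeded the lowest by 1.13-fold for TAP2, the steadiest gene, and by 4.21-fold for HLA-G, the most variable. The lengths are those of all exons annotated in GENCODE release 44 together, so a gene with long rare transcripts, such as TAP2 at 10357 bases, is placed lower than its main transcript would be. HLA-B and HLA-E had nearly equal mean CPM (241 and 243), so their order depends on the length used. The exons of HLA-B span 4623 bases and its reference transcript 1536, against 2922 and 2548 for HLA-E.

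**Figure D1:**
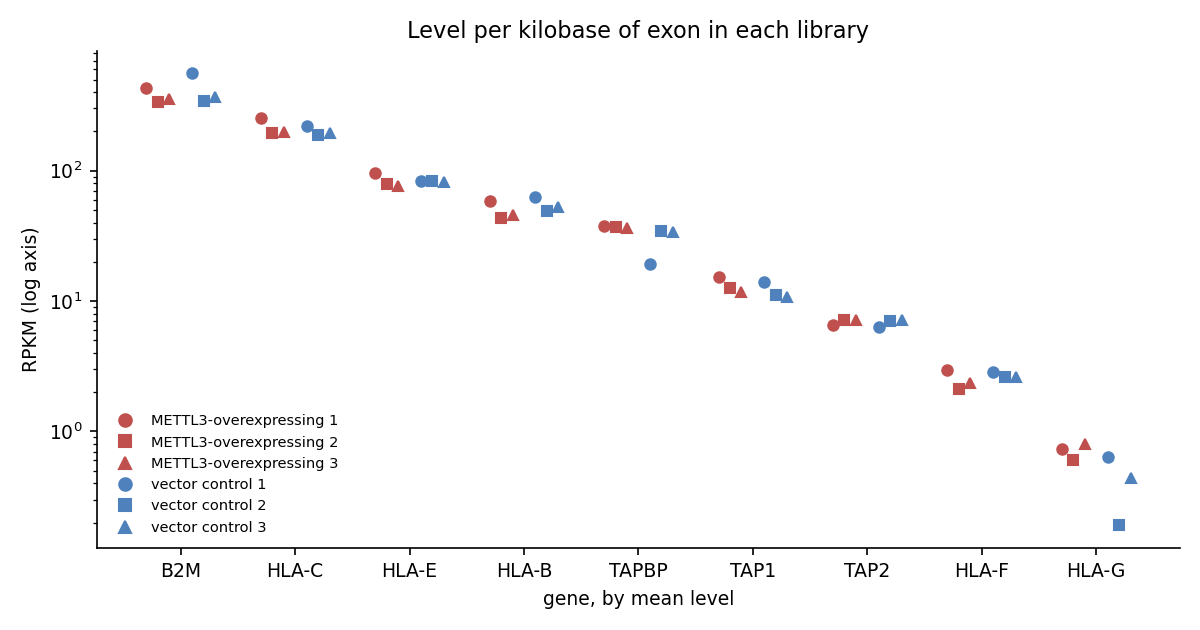
Level of each of the 9 genes in each library in RPKM on a log axis, with genes ordered by mean level, red for METTL3-overexpressing and blue for vector control libraries, and a marker shape for each replicate number. B2M lies at 336 to 558 RPKM and HLA-G at 0.191 to 0.804, and neighbouring genes do not overlap.

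Across all 6 libraries no member passed the test: edgeR called 0 of 9 at an adjusted p under 0.05, where it called 0% of the 22038 genes tested. At an unadjusted p under 0.05 edgeR had 0 of 9 members against 8.3% of all genes, and DESeq2, which called 1.27% of all genes, called 0 members after adjustment and had HLA-G alone under 0.05 before it. Positive log2 fold changes were seen for 6 members and negative ones for 3, with a median of 0.026 beside -0.018 over all genes tested. The 2 groups did not overlap in CPM for 1 member, TAPBP, while 17.4% of all genes tested had groups that did not overlap.

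**Figure D2:**
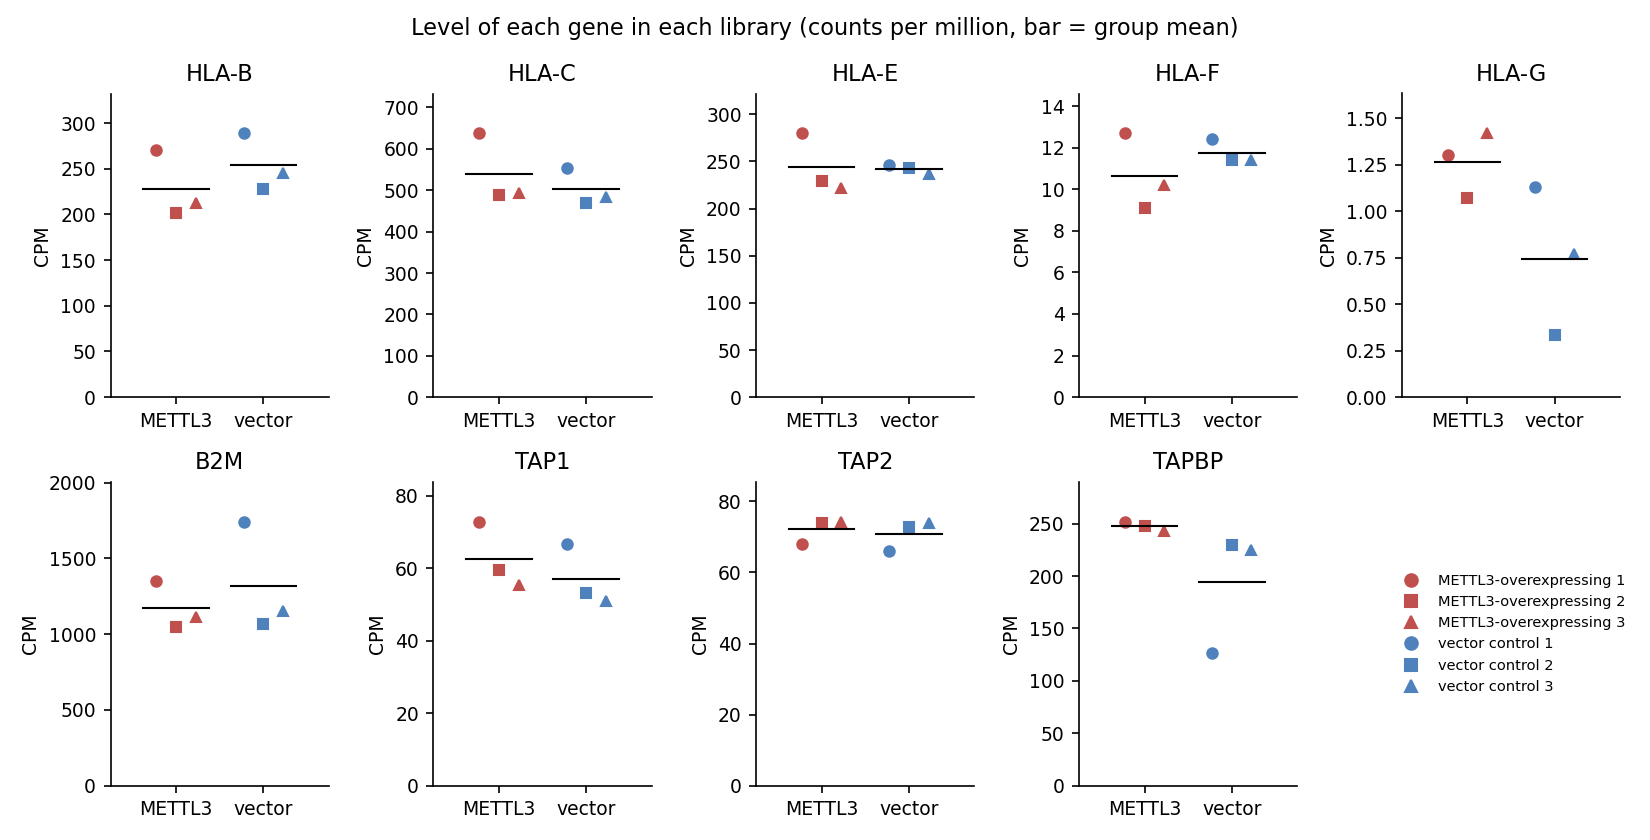
CPM of each of the 9 genes in each library on linear axes that start at 0, with points for libraries (marker shape by replicate number) and black bars for group means. Replicate 1 (circles) is the highest library of its group in both groups for HLA-B, HLA-C, HLA-E, HLA-F, B2M and TAP1, and TAPBP is low in vector control replicate 1 at 127 CPM.

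Among the classical heavy chains, HLA-B measured 270, 202 and 213 CPM under METTL3 overexpression against 289, 228 and 245 CPM for the empty vector. Each METTL3-overexpressing library lay below the vector library of the same number, but the groups overlapped because both replicate 1 libraries were high. The log2 fold change was -0.15 ± 0.153 (SE; edgeR, adjusted p = 0.775). The pseudogene DHFRP2 overlaps 30.7% of the exonic bases of HLA-B on the same strand.

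HLA-C, the most abundant heavy chain here, was at 638, 489 and 494 CPM with METTL3 and at 554, 470 and 484 CPM with the vector. The libraries of equal number differed the other way from HLA-B, with METTL3 above the vector in each, and the groups again overlapped. Its log2 fold change was 0.1 ± 0.147 (adjusted p = 0.844).

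The ratio of HLA-C to HLA-B counts within a library, which needs no scaling between libraries, was 2.36, 2.42 and 2.31 in the METTL3-overexpressing libraries and 1.91, 2.07 and 1.97 in the vector controls. The 2 groups did not overlap, and the difference in log2 ratio was 0.25, with 0.3, 0.23 and 0.23 within replicates 1, 2 and 3. This ratio was looked at after the values of both genes were known, so it is given as a description with no test.

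Of the non-classical heavy chains, HLA-E was at 280, 229 and 222 CPM with METTL3 and at 246, 243 and 237 CPM with the vector. Replicate 1 with METTL3 was the highest library and the other two with METTL3 were the lowest, and the log2 fold change was 0.012 ± 0.125 (adjusted p = 0.987).

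HLA-F, which can reach the cell surface without peptide, was low, at 12.7, 9.08 and 10.2 CPM with METTL3 and 12.4, 11.4 and 11.4 CPM with the vector. The groups overlapped through replicate 1, while replicates 2 and 3 with METTL3 lay below all vector libraries. The log2 fold change was -0.14 ± 0.158 (adjusted p = 0.81). Opposite-strand genes cover 15.6% (a pseudogene) and 12.4% (HLA-F-AS1) of the exonic bases of HLA-F, and how strand was counted is not given in the sources used here.

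HLA-G had 147, 133 and 143 counts in the METTL3-overexpressing libraries and 107, 38 and 85 in the vector controls, or 1.3, 1.07 and 1.42 CPM against 1.13, 0.336 and 0.769 CPM. The groups overlapped, since vector replicate 1 lay above METTL3 replicate 2, and vector replicate 2 stood lowest. The log2 fold change of 0.77 ± 0.396 was the largest among the members and did not pass (edgeR, adjusted p = 0.633; DESeq2, 0.483; range over all alternatives 0.0165 to 0.904). It was 0.45 without vector replicate 2 and 1.19 without vector replicate 1. A pseudogene on the opposite strand, HCG4P8, covers 25.8% of the exonic bases of HLA-G.

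Set against the classical genes that share sequence with it, HLA-G was a trace. For each 10000 counts on HLA-B and HLA-C together there were 14.3, 15.5 and 20 counts on HLA-G under METTL3 overexpression against 13.4, 4.82 and 10.5 for the empty vector. As a share of the counts of all 3 genes, HLA-G took 0.143% (95% Wilson interval 0.115 to 0.181), 0.155% (0.121 to 0.196) and 0.2% (0.16 to 0.254) with METTL3. The vector controls had 0.134% (0.103 to 0.176), 0.0482% (0.0308 to 0.0752) and 0.105% (0.0771 to 0.141). These intervals were taken on counts divided by 2, because 67.6% to 70.5% of the counts from 1 to 20 were even, and they cover counting error only.

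The log2 ratio of HLA-G to HLA-B plus HLA-C was -9.25 ± 0.25 (SD, n = 3) with METTL3 and -10.15 ± 0.77 (SD, n = 3) with the vector. The groups did not overlap, and the difference of 0.91 had a two-sided exact permutation p of 0.1, the smallest that 3 against 3 libraries allow. Within replicates 1, 2 and 3 the differences were 0.1, 1.69 and 0.93, so the replicate 1 libraries were nearly equal, and an exact permutation test on these 3 paired differences gave p = 0.25, the smallest that 3 pairs allow. Without vector replicate 2 the difference was 0.47. Against HLA-E plus HLA-F as the denominator, the difference was 0.92 (exact permutation p = 0.1). The counts of HLA-B plus HLA-C, the denominator of the first ratio, ranged from 71342 to 102455. The METTL3 library with the most of them (replicate 1) had the lowest HLA-G ratio of its group. Among the vector libraries it was the one with the fewest (replicate 2, 78872), so the groups went opposite ways.

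Several HLA class I pseudogenes, which lie near HLA-G in the MHC and resemble class I genes, were also detected. HLA-V was at 10.8, 9.09 and 10.3 CPM with METTL3 and at 7.49, 3.65 and 3.33 CPM with the vector. The groups did not overlap, and the log2 fold change of 1.06 ± 0.301 did not pass by edgeR (adjusted p = 0.449) and passed by DESeq2 (adjusted p = 0.0233). HLA-K was at 6.09, 7.77 and 8.65 CPM against 5.59, 5.44 and 5.57 CPM (log2 fold change 0.44 ± 0.171; edgeR, adjusted p = 0.567).

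HLA-J, HLA-H and HLA-L fell outside the rule for named genes and were picked after their values were seen, for their likeness to HLA-G. HLA-J, nearest to HLA-G at the primer sites, was at 0.452, 0.605 and 0.495 CPM with METTL3 and 0.4, 0.257 and 0.253 CPM with the vector, again without overlap. HLA-H (4.72 to 5.1 against 4.12 to 5.15 CPM) and HLA-L (2.11 to 3.17 against 2.34 to 3.08 CPM) had overlapping groups, with log2 fold changes of 0.035 and -0.047. The highest vector library was replicate 1 in HLA-V, HLA-J, HLA-K and HLA-H, as in HLA-G, but not in HLA-L. The part of reads shared between these genes in the HLA-G values was not tested.

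**Figure D3:**
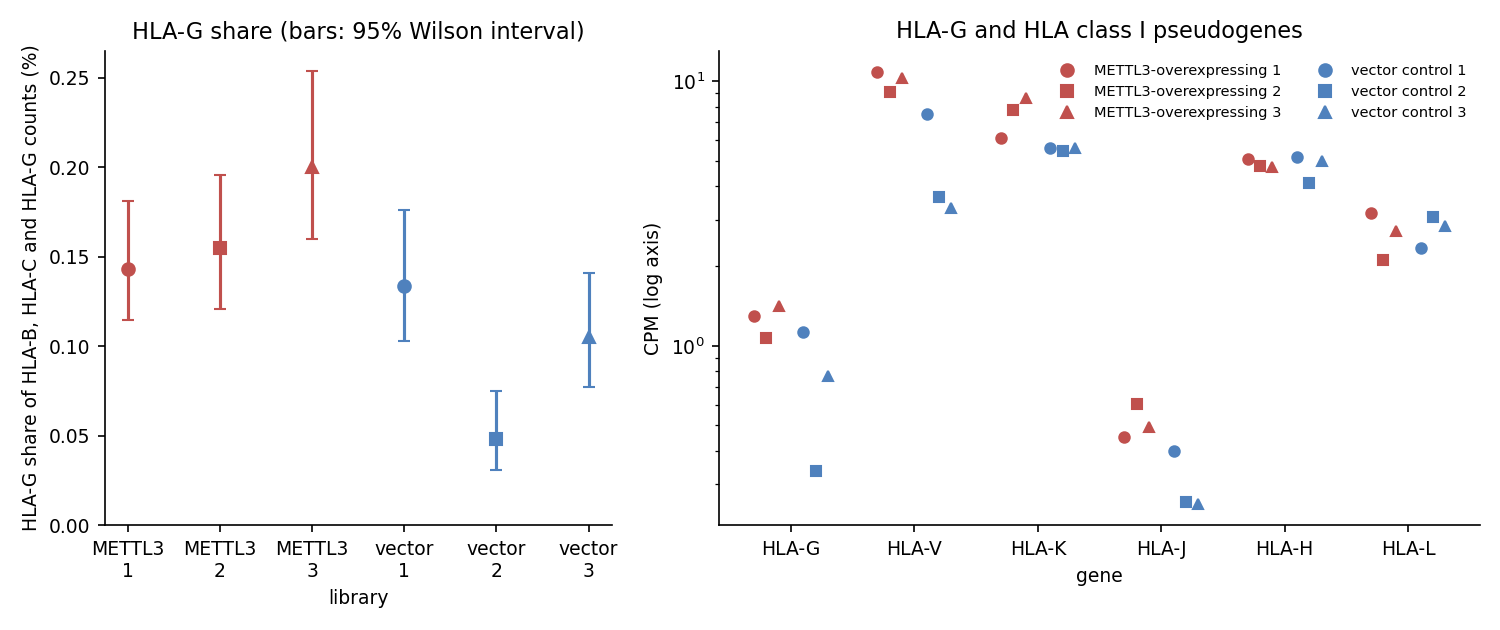
Left, HLA-G counts as a percentage of HLA-B, HLA-C and HLA-G counts in each library, with 95% Wilson intervals on halved counts. Right, CPM of HLA-G and 5 HLA class I pseudogenes in each library on a log axis. The share is 0.143% to 0.2% with METTL3 and 0.0482% to 0.134% with the vector. In CPM the groups do not overlap for HLA-V, HLA-K and HLA-J but overlap for HLA-G, HLA-H and HLA-L. Of the 10 genes tested in the pseudogene and noncoding list, 3 do not overlap, beside 17.4% of all genes tested.

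Summed over HLA-B, HLA-C, HLA-E, HLA-F and HLA-G, which removes any exchange of reads among them, heavy chain mRNA was at 1201, 930 and 941 CPM with METTL3 and 1102, 952 and 979 CPM with the vector. The groups overlapped, with both replicate 1 libraries highest. The difference in log2 sum was 0.011, with a two-sided exact permutation p of 1, and its sign turned in several of the alternative settings.

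The light chain gene B2M was at 1353, 1048 and 1113 CPM with METTL3 and at 1742, 1065 and 1149 CPM with the vector. Vector replicate 1 was the highest library by a wide margin, and the remaining vector libraries lay within the METTL3 range. The log2 fold change was -0.17 ± 0.207 (edgeR, adjusted p = 0.818), and it was 0.081 without vector replicate 1.

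For the peptide transporter, TAP1 was at 72.9, 59.5 and 55.5 CPM with METTL3 and at 66.7, 53.1 and 51 CPM with the vector (log2 fold change 0.14 ± 0.152; adjusted p = 0.799). TAP2 varied least, at 68, 74 and 74.3 CPM against 65.9, 72.7 and 73.9 CPM (log2 fold change 0.026 ± 0.106; adjusted p = 0.957). Each METTL3 library lay above the vector library of the same number for both subunits, yet the groups overlapped. TAP1 shares 14.2% of its exonic bases with PSMB8-AS1 on the opposite strand, and TAP2 shares 19.5% with a readthrough gene on its own strand.

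TAPBP, which encodes tapasin, was at 252, 248 and 243 CPM with METTL3 and at 127, 230 and 225 CPM with the vector. All METTL3 libraries lay above all vector libraries, but by little for vector replicates 2 and 3, while vector replicate 1 was far below every other library. The log2 fold change of 0.35 ± 0.213 did not pass (adjusted p = 0.654), and it was 0.12 without vector replicate 1. In that same vector library B2M was the highest of all and TAPBP the lowest.

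In replicates 2 and 3 alone the spread within groups was smaller, and edgeR called 15.2% of 22046 genes, with 6.66% higher and 8.59% lower under METTL3. Among the members, HLA-G was higher (log2 fold change 1.16 ± 0.329, adjusted p = 0.0304) and HLA-B was lower (-0.19 ± 0.0566, adjusted p = 0.0354), which makes 1 of 9 in each direction. That share is near the share of all genes. DESeq2 on the same 4 libraries called the same 2 genes, with adjusted p-values of 0.0165 for HLA-G and 0.0229 for HLA-B.

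The other 7 members did not pass in these libraries. HLA-F came nearest by edgeR, at -0.24 ± 0.0888 (adjusted p = 0.0891), followed by TAP1 at 0.14 ± 0.0589 (adjusted p = 0.131) and TAPBP at 0.11 ± 0.0505 (adjusted p = 0.189). HLA-E was at -0.09 ± 0.0509, HLA-C at 0.041 ± 0.0501, B2M at -0.037 ± 0.0556 and TAP2 at 0.015 ± 0.0534. Between the 2 replicate 1 libraries, where no test is possible, the log2 difference was 0.21 for HLA-G, -0.1 for HLA-B, 0.99 for TAPBP and -0.36 for B2M. In the same 4 libraries all 5 epithelial markers were called higher with METTL3, beside 6.66% of all genes, and their part in these differences was not tested. In all 6 libraries edgeR called 0 of these markers. Only CDH1, 1 of the 5, kept METTL3 and vector libraries apart in CPM, and 17.4% of all tested genes did so too. With 2 libraries in each group, the calls in replicates 2 and 3 rest on a small number of samples. For HLA-G, leaving out replicate 1 also removed the only vector library (1.13 CPM) that lay above a METTL3 library (1.07 CPM).

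**Figure D4:**
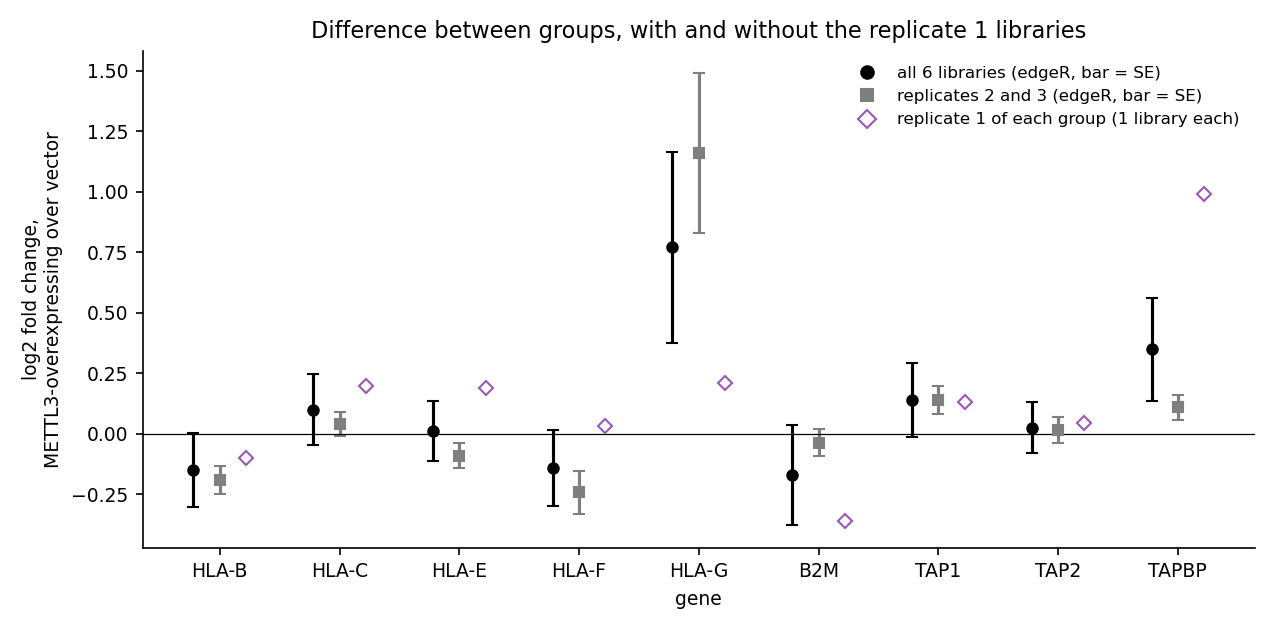
Log2 fold change of METTL3-overexpressing over vector control libraries for each gene by edgeR with all 6 libraries (black) and with replicates 2 and 3 (grey), bars being standard errors, and the log2 difference between the 2 replicate 1 libraries (open diamonds). HLA-G lies at 0.77, 1.16 and 0.21 and TAPBP at 0.35, 0.11 and 0.99, while HLA-B is below 0 in all 3.

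The promoters of 8 of the 9 genes were inspected (HLA-E was not analysed here) because interferon response elements and CCAAT boxes are the well known shared features of class I promoters. Stretches of the RefSeq promoter windows (GRCh38.p14, 250 bases before to 50 after the start) are printed on the gene's strand, with matches to AANNGAAA (the core bound by interferon regulatory factors) and to CCAAT on either strand in capitals. RefSeq lists 3 starts for HLA-G, and the window at chr6:29827575-29827874 is shown in part.
HLA-B promoter, chr6:31357215-31357360, minus strand: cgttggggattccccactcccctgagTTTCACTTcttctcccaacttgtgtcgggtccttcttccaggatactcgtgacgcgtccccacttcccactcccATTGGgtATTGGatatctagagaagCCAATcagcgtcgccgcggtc
HLA-C promoter, chr6:31272128-31272273, minus strand: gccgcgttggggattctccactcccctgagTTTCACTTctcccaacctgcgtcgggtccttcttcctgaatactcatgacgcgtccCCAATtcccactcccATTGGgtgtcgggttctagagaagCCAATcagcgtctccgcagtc
HLA-F promoter, chr6:29723253-29723398, plus strand: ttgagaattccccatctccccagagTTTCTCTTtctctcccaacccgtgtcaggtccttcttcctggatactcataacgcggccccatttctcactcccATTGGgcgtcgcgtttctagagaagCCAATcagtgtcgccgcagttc
HLA-G promoter, chr6:29827644-29827789, plus strand: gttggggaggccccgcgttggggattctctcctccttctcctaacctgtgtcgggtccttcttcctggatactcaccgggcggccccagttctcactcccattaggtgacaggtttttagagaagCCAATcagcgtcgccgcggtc
B2M promoter, chr15:44711360-44711403, plus strand: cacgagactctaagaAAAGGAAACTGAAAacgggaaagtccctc
TAP1 promoter, chr6:32853810-32853853, minus strand: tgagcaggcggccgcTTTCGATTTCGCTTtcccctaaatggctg
TAP2 promoter, chr6:32838773-32838816, minus strand: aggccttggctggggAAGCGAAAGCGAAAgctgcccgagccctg
TAPBP promoter, chr6:33314068-33314111, minus strand: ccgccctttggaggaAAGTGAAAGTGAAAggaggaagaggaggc

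AANNGAAA occurred in 22.8% of 35116 RefSeq promoters and CCAAT in 34.6%. HLA-B, HLA-C and HLA-F each held 1 AANNGAAA match, and B2M, TAP1, TAP2 and TAPBP each held 2, which run together in the stretches shown. RefSeq lists a second start for TAP1, whose window (chr6:32852712-32853011) held 0. The 3 HLA-G windows held 0, and the last of them kept 1 CCAAT match. These matches describe letters in the windows, and no relation to the measured levels was tested.

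As background to METTL3, the letters GGACT, the best known form of the m6A consensus, were counted on the sense strand of 1 reference transcript per gene, where 19701 protein-coding transcripts had a median of 0.923 per kilobase. HLA-E held 4 (1.57 per kilobase) and TAP2 held 8 (1.42), TAPBP held 4 (1.16) and B2M 1 (1.06). HLA-G had 1 (0.758 per kilobase), HLA-B 1 (0.651), HLA-C 1 (0.649), TAP1 2 (0.745) and HLA-F 0. No methylation was measured in these libraries.

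The rest of the presentation pathway was read from 6 lists of 87 genes in all, written with earlier results of these data known. In all 6 libraries edgeR called 0 genes of every list. DESeq2 called 1 class II gene (CD74) and 1 pseudogene (HLA-V), beside 1.27% of all genes tested. Before adjustment edgeR had 3 of 12 class II genes and 3 of the 10 tested pseudogenes and noncoding genes under 0.05, beside 8.3% of all genes. All of these had positive log2 fold changes, and the other 4 lists had 0 genes under 0.05. Of the 12 genes for peptide supply, which are proteasome subunits, their activators and the trimming peptidases, 5 had positive and 7 negative log2 fold changes, with a median of -0.041. PSMB5 (-0.31 ± 0.159), PSMB7 (-0.2 ± 0.171) and LNPEP (0.24 ± 0.111) had the largest. The catalytic subunit PSMB5 was at 158, 171 and 178 CPM with METTL3 and 261, 181 and 187 CPM with the vector, with vector replicate 1 standing high as for B2M. In replicates 2 and 3, 3 genes of this list were called, all higher and all peptidases: ERAP1, ERAP2 and LNPEP, the first 2 being named after their values were seen, beside 6.66% of all genes called higher.

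The 8 genes of folding and peptide editing had a median log2 fold change of 0.00075, with 4 in each direction. The chaperone CALR was at 956, 966 and 982 CPM against 1054, 1147 and 1097 CPM (log2 fold change -0.18 ± 0.114, adjusted p = 0.656), TAPBPL, a tapasin relative, was at 0.25 ± 0.191 and UGGT1, a folding sensor, at 0.17 ± 0.131. Replicates 2 and 3 gave 1 call higher, TAPBPL, and 2 lower, CALR and HSPA5, the last named after its values were seen, beside 6.66% of all genes higher and 8.59% lower. The groups of CALR did not overlap, which makes 1 of 8 in this list, beside 17.4% of all genes tested.

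Of 23 genes for transcription of class I genes and interferon signalling, 15 had positive and 8 negative log2 fold changes, with a median of 0.034. NLRC5, the transactivator of class I genes, was at 15.8, 11.5 and 11.6 CPM with METTL3 and 9.66, 11.1 and 10.4 CPM with the vector (log2 fold change 0.32 ± 0.165, adjusted p = 0.632). RELA, a subunit of NF-kappaB, was at 0.29 ± 0.144 and RFXANK, part of the RFX complex, at -0.19 ± 0.121, and in replicates 2 and 3 RELA was the 1 gene of 23 called (higher, beside 6.66% of all genes). The NLRC5 groups did not overlap, which held for 2 of these 23 genes, beside 17.4% of all genes tested. Its log2 difference was 0.71 between the replicate 1 libraries and 0.1 ± 0.0836 in replicates 2 and 3.

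The list of class I-like genes and NKG2D ligands, of which only the ligands are described as stress-induced, had 13 of 14 tested. It had 4 positive and 9 negative log2 fold changes and a median of -0.16. RAET1E (-0.56 ± 0.361), AZGP1 (0.56 ± 0.387) and PROCR (-0.48 ± 0.219) had the largest at 1 CPM or more. In replicates 2 and 3, 2 genes were called higher (AZGP1 and HFE) and 6 lower, PROCR and RAET1E among them, HFE being named after its values were seen, beside 6.66% of all genes higher and 8.59% lower.

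Class II genes, which present peptides to CD4+ T cells, had 11 of 12 log2 fold changes above 0 and a median of 0.41 in all 6 libraries and in replicates 2 and 3 alike. Their transactivator CIITA was at 87.1, 39.6 and 36 CPM with METTL3 and 29.9, 26.6 and 23.1 CPM with the vector (log2 fold change 1.03 ± 0.317; edgeR, adjusted p = 0.487). CD74, the invariant chain, was at 1201, 739 and 730 CPM against 489, 491 and 475 CPM (0.88 ± 0.201; edgeR, adjusted p = 0.395; DESeq2, 0.00752), and HLA-DOA was at 0.94 ± 0.389. Neither CIITA nor CD74 overlapped between groups, which makes 2 of 12 in this list, beside 17.4% of all genes tested. In replicates 2 and 3, 7 of 12 class II genes were called, all higher, beside 6.66% of all genes.

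**Figure D5:**
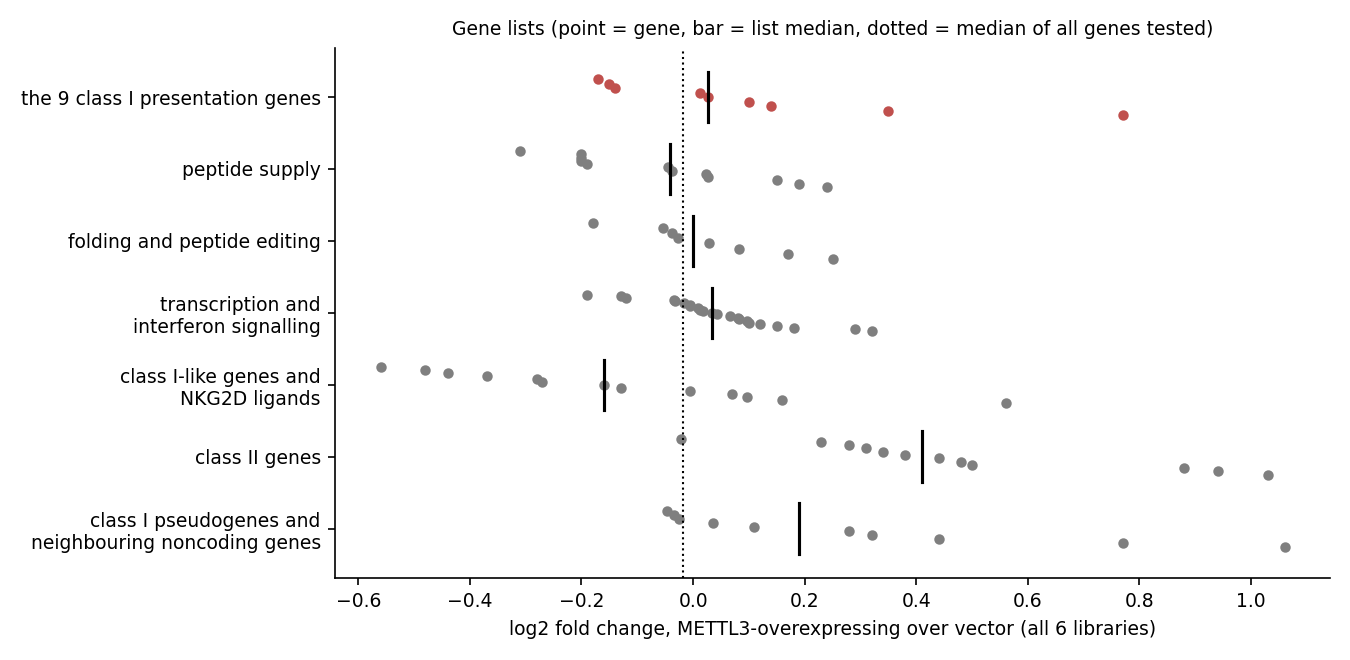
Log2 fold change of METTL3-overexpressing over vector control libraries, all 6 libraries, for the 9 class I presentation genes (red) and for the genes tested of 6 lists (grey), with list medians as bars and the median of all genes tested as a dotted line. The 9 genes have a median of 0.026 and the class II genes one of 0.41.

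Of 18 class I pseudogenes and neighbouring noncoding genes, 10 were expressed enough to test, 7 of them with positive log2 fold changes, and the median was 0.19. HLA-V, HLA-K and HCG4B (0.32 ± 0.307) had the largest at 1 CPM or more, and HLA-V, HLA-K and HLA-J were the 3 of 10 called in replicates 2 and 3, all higher, beside 6.66% of all genes. Among the marker lists, CDH1, the epithelial cadherin, which was singled out after its values were seen, was at 439, 358 and 346 CPM with METTL3 and 201, 184 and 189 CPM with the vector (log2 fold change 0.99 ± 0.131; edgeR, adjusted p = 0.17; DESeq2, 1.47e-08). Of the trophoblast markers, CGA, CGB3 and GCM1 were at or near 0 and PSG1 was at 0.654 to 1.65 CPM, and the 5 summed to 0.763 to 1.97 CPM with METTL3 and 1.17 to 2.07 CPM with the vector. Fibroblast markers summed to 16.8 to 18.3 and 8.29 to 17.9 CPM, nearly all of it COL1A1, with DCN and LUM near 0.

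The genes whose log2 CPM followed each other most closely over the 6 libraries were ranked among 14663 genes by Pearson's r. The ranking is a description, since all genes come from the same libraries and replicate 1 stands apart. For HLA-B the nearest were ADAM32 (0.996), SNCG (0.992), TIGD1 (0.984), TMEM165 (0.983) and BCDIN3D (0.982), and among the members HLA-F (0.924) and B2M (0.9) came closest, ahead of HLA-C (0.701) and HLA-E (0.701). For HLA-G the nearest were ENSG00000278133 (0.989), AUH (0.973), ATG16L1 (0.973), CCDC65 (0.972) and DDTL (0.963). Its closest members were TAP1 (0.559) and HLA-C (0.538), while r was 0.138 with HLA-B and 0.046 with HLA-E.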

How the data were processed

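RNA-seq was measured in 3 METTL3-overexpressing and 3 vector control libraries of OVCAR5. The authors aligned reads to hg38 with HISAT2 and deposited raw counts per gene (Subread featureCounts; fastp is also listed in the submitters' notes), without normalization. Software versions, the annotation release and how strand and multi-mapping reads were handled are not given in the sources used here. The study's methods and the labels differ on the library kit and on single-end or paired reads.

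Gene identifiers, without version, were matched to GENCODE release 44 (GRCh38), which also gave coordinates and exon lengths. The members and gene lists were chosen with earlier results of these data known, and other HLA class I genes are not reported here. In R 4.3.3, edgeR 4.0.16 (filterByExpr with a minimum count of 10, TMM, glmQLFit robust, glmQLFTest) was fitted across all genes, and p-values were adjusted by Benjamini and Hochberg (threshold 0.05); DESeq2 1.42.0 was an alternative. The fit was tested on simulated data in which replicate 1 was not set apart, so that test does not cover this feature of the libraries. Each SE was derived from the log2 fold change and its F statistic. Ratios and sums were compared by exact permutation tests over the 20 possible assignments of libraries to groups (scipy 1.17.1). Total counts per library lay between 96633925 and 125463386. Named genes are the 9 members, METTL3, the 3 genes of each list with at least 1 CPM on average and the largest absolute log2 fold change, and the 5 genes most correlated with HLA-B and with HLA-G; exceptions are said. Coding sequences were aligned with biopython 1.88.

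Replicate numbers are shared between groups. Deviations from group means correlated at 0.334, 0.12 and 0.175 for numbers 1, 2 and 3, all above 0.1. Numbers 2 and 3 also correlated crosswise (0.205 and 0.133), METTL3 replicate 2 more with vector replicate 3 than with vector replicate 2. This check rests on the values and not on the labels, and it does not settle whether numbers 2 and 3 pair the libraries. The main tests were unpaired, and the replicate number was a block in an alternative. Alternatives were DESeq2, other scalings, no filter, a stricter filter, the replicate block, counts divided by 2, each library left out, and replicates 2 and 3 alone; DESeq2 on replicates 2 and 3 was added after seeing the data.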

Additional observations from a re-analysis of the deposited data

How the results depend on the processing

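No gene was called on all 6 libraries with edgeR, whereas DESeq2 called 280, edgeR without a low-count filter 560, replicates 2 and 3 alone 3362 (DESeq2, 3233), and leaving out 1 library gave 0 to 367, the 367 being without vector replicate 1. Members called numbered 0 in each setting except replicates 2 and 3, where edgeR and DESeq2 each called 2, HLA-B (-0.19 and -0.18) and HLA-G (1.16 and 1.18). With the replicate block 0 genes and 0 members were called, HLA-G being at 0.89 (adjusted p = 0.388), and the block changed no other call. HLA-E turned to -0.09 (edgeR) and -0.082 (DESeq2) in replicates 2 and 3. Leaving out 1 library moved HLA-C from -0.011 to 0.19, HLA-E from -0.079 to 0.091, B2M from -0.27 to 0.081, TAP2 from -0.024 to 0.085 and the summed heavy chains from -0.11 to 0.076, so their direction was not settled; the summed heavy chains were at -0.045 in replicates 2 and 3. HLA-B (-0.27 to -0.05 without 1 library), HLA-F (-0.26 to -0.012), HLA-G (0.45 to 1.19), TAP1 (0.037 to 0.27) and TAPBP (0.12 to 0.51) kept their sign in every setting run though not their size, as did HLA-G relative to HLA-B plus HLA-C (0.47 to 1.21 without 1 library). The cause of the change without vector replicate 1 was not tested. HLA-G had the fewest counts of the members, 38 to 147, and how far depth limits its values was not tested.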
